A study of Mus musculus with 12 samples.

Results

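Maternal transcripts of 9 pluripotency and early embryo factors were followed through oocyte growth and meiotic maturation in WT and Zar1/2-null mice. The genes were chosen by name, as regulators of pluripotency or of the early embryo that an oocyte can carry as mRNA. They were Pou5f1, Sox2, Sall4, Esrrb, Dppa2, Dppa4, Dppa5a, Lin28a and Yap1, which are 9 of the 23230 genes listed. Of these 9 genes, 8 reached 1 FPKM in at least 1 library, as did 11502 genes in all, and Sox2 did not. FPKM counts mapped fragments relative to transcript length and library size, so levels of different genes can be set side by side.

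Growing, fully grown germinal vesicle (GV) and ovulated oocytes, the last labelled metaphase II (MII), were profiled by Smart-seq2 in both genotypes. There were 2 libraries of 10 pooled oocytes for each of the 6 groups. The mice were C57BL6/ICR hybrids, and the Zar1/2-null females carried CRISPR/Cas9 deletions near the start codons of Zar1 and of Zar2 in all their cells, while the WT females carried neither. Growing oocytes came from females that the sample labels give as 13.5 days old, and the methods as slightly younger. GV oocytes came from 21-day-old females 44 h after PMSG, a gonadotropin that makes follicles grow. MII oocytes were collected 16 h after hCG, which triggers ovulation. The paper's superovulation methods give PMSG 44 h before hCG, in females of the same age range as for GV oocytes. The labels give neither age nor PMSG for the MII libraries. The paper reported that ovulated oocytes lacking both genes were arrested in meiosis I, at metaphase or telophase. For Zar1/2-null oocytes MII thus names the time of collection. Genotype and meiotic stage differ together in the MII libraries, and their parts were not tested here. By quantitative PCR the paper found that WT oocytes held in meiosis I with nocodazole still degraded selected mRNAs. It proposed that missing ZAR1/2, and not the arrest, delayed mRNA decay. Oocytes treated in that way are not among the 12 libraries. Smart-seq2 primes reverse transcription on the poly(A) tail, so the amount of an mRNA and the length of its tail cannot be told apart, nor can fewer cells of a kind and less RNA per cell in pooled oocytes. Nothing in the labels says that the 2 libraries of a group came from separate animals, so p-values measure the spread between these libraries, which may be technical.

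POU5F1 (OCT4), SOX2, SALL4 and ESRRB are DNA-binding proteins of the network that keeps embryonic stem cells pluripotent. DPPA2 and DPPA4 are a pair of SAP-domain chromatin proteins that act together on genes of the cleavage-stage embryo, and DPPA5A is a small KH-domain protein of germ cells and early embryos. LIN28A binds RNA and blocks maturation of let-7 microRNAs, and YAP1 is the coactivator that the Hippo kinases restrain. A growing oocyte stores such mRNAs while it transcribes, transcription stops in the fully grown oocyte, and many stored mRNAs are then translated or cleared during meiotic maturation.

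The 3′ ends of the transcripts hold the signals that nuclear and cytoplasmic polyadenylation use, and are shown for 6 factors. Each is a run of 30 bases on the transcript strand (NCBIM37, the mm9 build, GENCODE M1 annotation). It reaches the annotated 3′ end, except in Lin28a, where it starts 35 bases before that end. Capitals mark the polyadenylation signals AATAAA and ATTAAA and the cytoplasmic polyadenylation element TTTTAT.
Dppa5a (chr9:78214859-78214888, minus strand): aAATAAAaAATAAAattgaagtgATTAAAa
Pou5f1 (chr17:35647692-35647721, plus strand): aAATAAAgactgggacacacagtagatagc
Sall4 (chr2:168573832-168573861, minus strand): gaaAATAAAgtgaatgttttccctccatga
Esrrb (chr12:87862549-87862578, plus strand): aaatctAATAAAtaaggaaaggtctgctga
Lin28a (chr4:133559250-133559279, minus strand): AATAAAgacttattggtactccagagttgg
Yap1 (chr9:7931999-7932028, minus strand): tacAATAAAccaatTTTTATaatcttaaaa
The Dppa5a end held 3 polyadenylation signals within its last 30 bases, and the Yap1 end held TTTTAT 16 bases from the end. Dppa2 and Dppa4 had neither AATAAA nor ATTAAA in their last 150 bases, whereas 82.3% of 9677 genes kept for testing had at least 1 of them there. TTTTAT or TTTTAAT lay in the last 150 bases of the 3′ UTR in Dppa2, Lin28a and Yap1, against 26.3% of those genes, and anywhere in the 3′ UTR in Sall4 and Sox2 as well, against 64.8%. Dppa5a, Dppa4, Pou5f1 and Esrrb held neither motif anywhere in the 3′ UTR. The motifs were searched on the transcript strand alone, TTTTAT and TTTTAAT were counted together, and a match is a description of the letters.

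The factors lay on 7 chromosomes, and Dppa4 (chr16:48283848-48294405) and Dppa2 (chr16:48310590-48319836) were neighbours on the plus strand with 16184 bases between them. Dppa5a (chr9:78214859-78215984, minus strand) had 3 exons and a transcript of 619 bases, and only 1.83% of the kept genes with an annotated transcript had a shorter one. Its transcript also aligned along 608 bases to 2 other spliced loci on chromosome 9 at 97.5% identity. Dppa2 had 4 other loci of at least 300 aligned bases and 90% identity, Dppa4 had 1 and Pou5f1 had 1 of 385 bases. The authors kept uniquely mapped reads, so the levels of these 4 genes are uncertain to the extent that their reads were shared or lost.

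The deposited FPKM values had been multiplied by the authors with 1 factor per library, from the share of ERCC reads (a synthetic RNA mix of which every sample received the same quantity). The recovered factors were 0.862 and 0.779 in Zar1/2-null growing oocytes, between 0.533 and 0.836 at the GV stage and between 0.225 and 0.283 at MII, relative to the WT growing library of the same replicate number. The scaling moved all genes of a library together. At the GV stage the median gene differed by -0.38 (log2, Zar1/2-null minus WT) with it and by -0.03 without it, and from GV to MII in WT oocytes by -1.28 and -0.43. Relative sequencing depth, read from the steps of low values, lay between 0.914 and 1.24 times that of the first WT growing library. Zar1l, the listed name of Zar2, was lower in both Zar1/2-null libraries at every stage (15.3 ± 3.04 against 642 ± 3.21 FPKM in growing oocytes, SD, n = 2 each), while Zar1 was lower in Zar1/2-null growing and GV oocytes and higher at MII (192 ± 2.80 against 78.0 ± 7.97 FPKM). Reads outside a short deletion do not check it. All 16 oocyte markers examined reached a mean of 1 FPKM in 5 groups, and 15 of them in WT MII oocytes. The summed level of 17 granulosa and cumulus markers ranged from 23.6 to 27.5 FPKM in WT growing and from 6.71 to 11.5 FPKM in Zar1/2-null growing oocytes, and from 4.22 to 15.5 FPKM in the other groups. Most of it was Cyp19a1, and Ptx3 was at 0 in all 12 libraries. The sum of 10 epithelial markers was 20.5 and 23.7 FPKM in WT growing and 89.6 and 111 FPKM in Zar1/2-null growing libraries, the latter mostly Krt8. The 9 immune and 8 theca and stromal markers summed to at most 3.62 and 1.94 FPKM in any library. Their part in the results below was not tested.

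Before any comparison, the factors spanned a wide range of levels in WT growing oocytes. Dppa5a was the 7th highest of the 11502 kept genes, with 3780.5 ± 236 FPKM (mean ± SD, n = 2 here and below). Dppa2 (173 ± 30.9 FPKM) and Sall4 (139 ± 4.46 FPKM) followed among the highest 910 kept genes, and then Pou5f1 (26.6 ± 0.998 FPKM), Yap1 (20.5 ± 2.81 FPKM) and Dppa4 (16.5 ± 0.524 FPKM). Esrrb (9.47 ± 0.103 FPKM) and Lin28a (9.08 ± 1.61 FPKM) were close to the median gene, and their libraries overlapped, unlike those of the other neighbours in this order. Sox2 was near the limit of detection at 0.151 ± 0.121 FPKM. The order had changed by MII in WT oocytes, where Sall4 led with 63.2 ± 5.07 FPKM, followed by Yap1 (15.1 ± 0.635 FPKM) and Dppa5a (9.23 ± 1.53 FPKM), and then by Dppa2 and Pou5f1, whose libraries overlapped. In Zar1/2-null MII oocytes Dppa5a stayed first at 1298 ± 318 FPKM, the 17th highest gene.

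**Figure D1:**
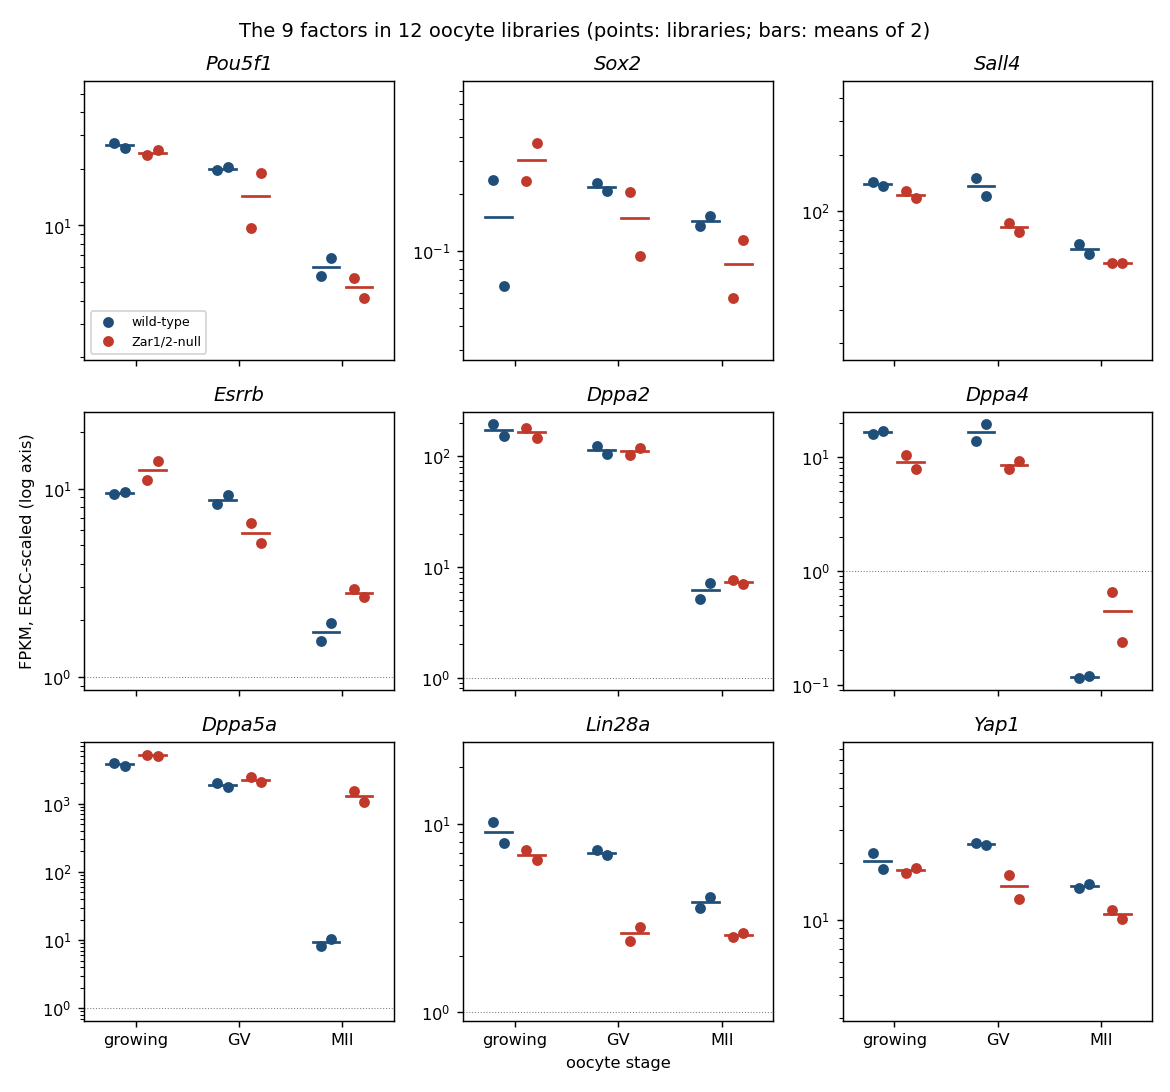
FPKM on a log axis (ERCC-scaled) of the 9 factors in growing, GV and MII oocytes, with a point for each library, a bar for the mean of 2, WT in blue and Zar1/2-null in red. Dppa5a drops to 8.15 and 10.3 FPKM in the WT MII libraries and stays at 1523 and 1073 FPKM in the Zar1/2-null MII libraries, while Dppa2 falls in both genotypes.

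The comparison of Zar1/2-null with WT oocytes asks at which stages the levels of these mRNAs differ between the genotypes. Which factors passed the test varied with the stage. In growing oocytes, Dppa4 was lower in the Zar1/2-null libraries and no other factor passed the test (limma with Benjamini-Hochberg adjustment over all 11502 genes, adjusted p under 0.05). At the GV stage, Sall4, Dppa4, Lin28a, Esrrb and Yap1 were lower. At MII, where the genotypes also differ in meiotic stage, Dppa5a and Esrrb were higher and Lin28a was lower.

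These counts stand against the share of all genes called the same way. In growing oocytes 1 of 8 tested factors was lower and 0 were higher, where 24.4% of all genes were lower and 10.6% higher. With an unadjusted limma p under 0.05, 2 factors were higher and 2 lower at this stage, as were 1623 and 3571 of all 11502 genes. At the GV stage 5 were lower and 0 higher, where 40.6% of all genes were lower and 2.83% higher. At MII 2 were higher and 1 lower, where 21.5% were higher and 10.3% lower. The median log2 difference of the 8 factors was -0.14 in growing oocytes, -0.61 at the GV stage and 0.00 at MII, and that of all genes was -0.16, -0.38 and 0.06. The pair of Zar1/2-null libraries was below the WT pair, without overlap, for 4, 6 and 4 factors at the 3 stages, as in 47.4%, 63.6% and 27.8% of all genes. It was above for 2, 1 and 3 factors, as in 22.4%, 6.79% and 43.5% of all genes. Under the 3-fold rule (means set to at least 1 FPKM and more than 3-fold apart), 1 factor was higher at MII, against 7.49% of genes. No factor was higher in growing or GV oocytes (0.982% and 0.461% of genes were), and 0 were lower at the 3 stages (3.54%, 4.2% and 1.32% of genes).

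**Figure D2:**
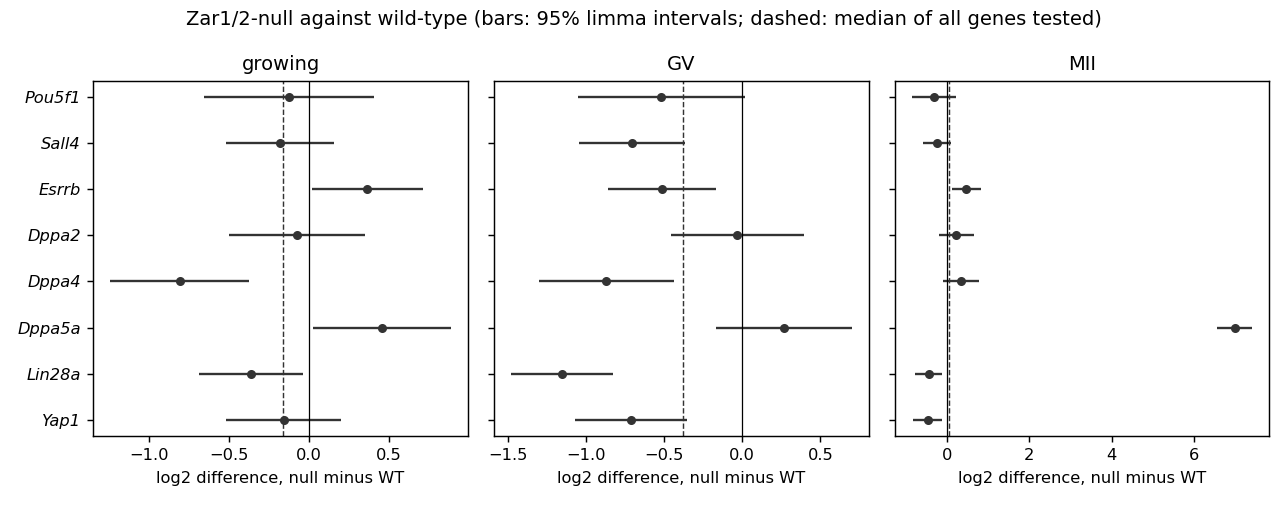
Log2 difference (Zar1/2-null minus WT, on the log2(FPKM + 1) scale) of the 8 tested factors at 3 stages, with 95% intervals from limma as bars and the median of all 11502 genes dashed. The x axes differ in range. Lin28a at the GV stage lies farthest below the dashed line, and Dppa5a at MII, at 6.97, far above every other factor.

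Dppa5a showed the largest difference. In growing oocytes it had 3947 and 3614 FPKM in WT libraries, against 5265 and 5103 FPKM in Zar1/2-null libraries. In GV libraries it had 2018 and 1750 FPKM in WT against 2467 and 2074 FPKM in Zar1/2-null libraries. At MII it had 8.15 and 10.3 FPKM in WT libraries, and 1523 and 1073 FPKM in Zar1/2-null libraries. The Zar1/2-null libraries thus lay above both WT libraries at each stage, by a little at the first and second and by a factor of 141 between the means at MII. The MII difference was 6.97 ± 0.20 (log2, SE; limma adjusted p = 9.82e-10), the 4th highest of 11502 genes. It was 118-fold without the ERCC scaling and 120-fold with each library scaled to the same median gene, and the call held in each of 13 alternatives run (adjusted p from 4.04e-11 to 4.99e-06 by limma). The growing and GV differences were 0.46 ± 0.20 (limma adjusted p = 0.0941) and 0.27 ± 0.20 (limma adjusted p = 0.284), and both passed the test once the ERCC scaling was taken out (0.74 and 0.72 on the log2 scale, limma adjusted p = 0.00723 and 0.0107). The values for this gene step in whole fragments, of which the WT MII libraries held 162 (95% Poisson interval 138 to 189) and 259 (228 to 293), and the other 10 libraries between 11909 and 39619. These intervals cover counting error only.

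The Dppa5a difference at MII went with its change from the GV stage. In WT oocytes 0.490% of the GV level was left at MII (log2 change -7.53 ± 0.20, limma adjusted p = 8.92e-11), and in Zar1/2-null oocytes 57.2% was left (-0.82 ± 0.20, limma adjusted p = 0.00303). The change with stage differed between genotypes by 6.71 ± 0.28 (limma adjusted p = 3.67e-08, and called in each of 17 alternatives). The fall in Zar1/2-null oocytes was close to that of the median gene (-0.72), and it turned into a rise without the ERCC scaling (0.24, limma adjusted p = 0.235) and with median scaling (0.52, limma adjusted p = 0.0193). During growth Dppa5a fell in both genotypes, by 1.01 ± 0.20 on the log2 scale in WT (limma adjusted p = 0.00514) and by 1.20 ± 0.20 in Zar1/2-null oocytes (limma adjusted p = 0.000434). Leaving out the second WT GV library ended the WT call (limma adjusted p = 0.0515), as did median scaling (0.0521).

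Dppa2 and Dppa4 fell during maturation in both genotypes. Dppa2 had 195 and 151 FPKM in WT growing, 123 and 104 FPKM in WT GV and 5.18 and 7.09 FPKM in WT MII libraries. In Zar1/2-null libraries it had 182 and 147 FPKM, 103 and 119 FPKM, and 7.60 and 7.01 FPKM at the same stages. The genotypes overlapped at all 3 stages, and the differences were -0.07, -0.03 and 0.23 on the log2 scale, with 95% intervals of -0.50 to 0.36, -0.46 to 0.40 and -0.20 to 0.66. Without the ERCC scaling Dppa2 was higher in Zar1/2-null GV oocytes by 0.42 (limma adjusted p = 0.097), and with median scaling by 0.51 (limma adjusted p = 0.0488). From GV to MII, 5.40% of its level was left in WT and 6.57% in Zar1/2-null oocytes (log2 changes -4.02 ± 0.19 and -3.75 ± 0.19, limma adjusted p = 4.72e-09 and 2.31e-08). The difference between these changes was 0.26, with a 95% interval of -0.34 to 0.87.

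Dppa4, the partner and genomic neighbour of Dppa2, was the factor that was lower in Zar1/2-null growing oocytes. By quantitative PCR relative to Actin, the paper placed Dppa4 among early zygotic genes, very low in WT oocytes and zygotes and accumulating after the first cleavage. Its activation was blocked in embryos from Zar1/2-null females. Those relative PCR levels and FPKM are unlike measures. In the libraries used here Dppa4 had 16.1 and 16.9 FPKM in WT against 10.4 and 7.79 FPKM in Zar1/2-null growing libraries. In GV libraries it had 13.9 and 19.5 FPKM in WT against 7.95 and 9.20 FPKM in Zar1/2-null libraries. The genotypes did not overlap at either stage, with about the same distance between them. The log2 differences were -0.81 ± 0.20 (limma adjusted p = 0.00886) and -0.87 ± 0.20 (limma adjusted p = 0.00502). The growing call was lost without the second WT library (limma adjusted p = 0.0508), without the second Zar1/2-null library (0.0862) and with a pseudocount of 0.1 FPKM (0.0631). It was also lost under median scaling (-0.52, limma adjusted p = 0.141) and after removal of the ERCC scaling (-0.55, 0.155). The GV call held without any single library and was lost with the ERCC scaling taken out (-0.47, limma adjusted p = 0.257) and with median scaling (-0.37, 0.316). At MII Dppa4 was below 1 FPKM in all libraries, with 0.115 and 0.118 FPKM in WT against 0.652 and 0.235 FPKM in Zar1/2-null libraries. Both Zar1/2-null libraries were above both WT libraries there, but the difference on the log2(FPKM + 1) scale was 0.36 ± 0.20 (limma adjusted p = 0.209). It passed the test without the ERCC scaling (limma adjusted p = 0.0409), with median scaling (limma adjusted p = 0.0470) and with a pseudocount of 0.1 FPKM (limma adjusted p = 0.00866). From GV to MII, 0.700% of its level was left in WT and 5.17% in Zar1/2-null oocytes. These changes differed by 1.22 ± 0.28 on the log2 scale (limma adjusted p = 0.00673). That value joins the lower Zar1/2-null level at GV (-0.87) to an MII difference (0.36) that missed the threshold and came from values below 1 FPKM.

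**Figure D3:**
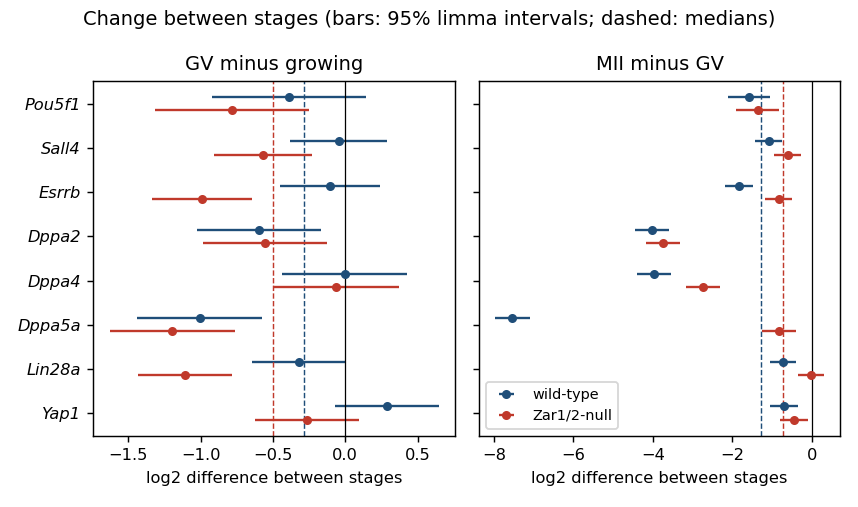
Log2 change of the 8 tested factors from growing to GV and from GV to MII oocytes, in WT (blue) and Zar1/2-null (red) oocytes, with 95% limma intervals as bars and the median of all genes dashed in the same colours. The pairs of points lie close together for Dppa2 and far apart for Dppa5a from GV to MII (-7.53 and -0.82), and apart for Lin28a and Esrrb in both panels.

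Lin28a, the RNA-binding inhibitor of let-7, was lower in Zar1/2-null GV oocytes more than any other factor. It had 10.2 and 7.93 FPKM in WT growing and 7.22 and 6.40 FPKM in Zar1/2-null growing libraries. In GV libraries it had 7.22 and 6.83 FPKM in WT against 2.39 and 2.85 FPKM in Zar1/2-null libraries. At MII it had 3.55 and 4.09 FPKM in WT against 2.49 and 2.62 FPKM in Zar1/2-null libraries. Both Zar1/2-null libraries were below both WT libraries at every stage. The GV difference was -1.15 ± 0.15 (limma adjusted p = 0.000201), or -0.78 relative to the median gene, and it was called in all 13 alternatives, with values from -1.39 to -0.70. The growing difference was -0.36 ± 0.15 (limma adjusted p = 0.0819). The MII difference was -0.44 ± 0.15 (limma adjusted p = 0.0433), and it lost the call without any 1 of the 4 MII libraries (limma adjusted p from 0.0730 to 0.212), with no filter on low values (0.0682) and with genes of at least 5 FPKM (0.0563). It was larger without the ERCC scaling (-0.76, limma adjusted p = 0.00289).

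The course of Lin28a over the stages differed between the genotypes. From growing to GV it fell by 1.11 ± 0.15 on the log2 scale in Zar1/2-null oocytes (limma adjusted p = 0.000117), while in WT oocytes the change was -0.32 ± 0.15 (limma adjusted p = 0.119). Between GV and MII it fell by 0.74 ± 0.15 in WT oocytes (limma adjusted p = 0.000595), and the change in Zar1/2-null oocytes was -0.02 (95% interval -0.35 to 0.31). The genotype effect was thus lower at GV than in growing oocytes by 0.79 ± 0.21 (limma adjusted p = 0.0323) and higher at MII than at GV by 0.71 ± 0.21 (limma adjusted p = 0.0233). The first was -0.74 without the ERCC scaling (limma adjusted p = 0.0903) and -0.61 with median scaling (0.125), and thus lost the call at about the same size. The second was near 0 under both (0.09 and -0.02, limma adjusted p = 0.845 and 0.959). Of 8 fits that left out 1 library, 2 called the first and 3 the second. The WT fall from GV to MII became a rise under both scalings (0.81 and 1.10, limma adjusted p = 0.00120 and 5.44e-05). The fragments recovered for this gene numbered between 169 and 774 per library.

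Among the DNA-binding factors, Sall4 and Esrrb passed the test at the GV stage and Pou5f1 did not. The GV differences of Esrrb (-0.51) and Pou5f1 (-0.52) were close in size, each -0.14 relative to the median gene, so the threshold alone separated them. Sall4, a zinc finger protein of germ cells and the inner cell mass, had 142 and 136 FPKM in WT growing, 150 and 121 FPKM in WT GV and 66.8 and 59.6 FPKM in WT MII libraries. In Zar1/2-null libraries it had 128 and 117 FPKM, 87.1 and 77.6 FPKM, and 53.4 and 53.5 FPKM. The Zar1/2-null libraries were lower at each stage, most of all at GV, but in growing oocytes the sign of the difference depended on the scaling (-0.18 with the ERCC scaling, 0.10 without it and 0.11 with median scaling, limma adjusted p = 0.385, 0.608 and 0.616). The GV difference was -0.70 ± 0.15 (limma adjusted p = 0.00401) and -0.33 relative to the median gene, and it was not called without the ERCC scaling (-0.26, limma adjusted p = 0.209) or with median scaling (-0.17, limma adjusted p = 0.440). At MII the difference was -0.24 ± 0.15 (limma adjusted p = 0.292), and -0.48 without the ERCC scaling (limma adjusted p = 0.0117). From growing to GV the WT change of Sall4 was -0.05 (95% interval -0.38 to 0.29), and Sall4 fell by 0.57 ± 0.15 in Zar1/2-null oocytes (limma adjusted p = 0.00799). That fall was gone under the other scalings, at -0.02 once the ERCC factors were removed (limma adjusted p = 0.936) and 0.05 with median scaling (0.818).

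Esrrb, an orphan nuclear receptor, was lower in Zar1/2-null oocytes at GV and higher at MII, and both calls rested on the ERCC scaling. It had 9.40 and 9.55 FPKM in WT against 11.2 and 14.0 FPKM in Zar1/2-null growing libraries. At GV it had 8.25 and 9.22 FPKM in WT against 6.53 and 5.14 FPKM in Zar1/2-null libraries, and at MII 1.56 and 1.93 FPKM against 2.95 and 2.66 FPKM. In these ERCC-scaled values the genotypes did not overlap at any stage, with the Zar1/2-null libraries above, below and above WT in turn. The differences were 0.37 ± 0.16 (limma adjusted p = 0.0926), -0.51 ± 0.16 (limma adjusted p = 0.0219) and 0.47 ± 0.16 (limma adjusted p = 0.0398). The effect was lower at GV than in growing oocytes by 0.88 ± 0.22 (limma adjusted p = 0.0268) and higher at MII than at GV by 0.99 ± 0.22 (limma adjusted p = 0.00634). The first was called in 2 of 8 fits that left out 1 library (limma adjusted p up to 0.0944) and the second in all 8. After removal of the ERCC factors they were -0.76 and 0.53 (limma adjusted p = 0.166 and 0.252), and with median scaling -0.65 and 0.44 (0.181 and 0.249). The MII call was lost without any 1 of the 4 MII libraries (limma adjusted p from 0.0595 to 0.217) and with no filter on low values (0.0671), and the GV call without either WT GV library (0.0541 and 0.0963) or without the second Zar1/2-null library (0.120). Under the other scalings the GV difference was close to 0, at -0.12 without the ERCC factors and -0.04 with median scaling (limma adjusted p = 0.735 and 0.906). The MII difference was 0.40 under both and missed the threshold (limma adjusted p = 0.139 and 0.0880), and the growing difference passed it (0.64 and 0.61, limma adjusted p = 0.0450 and 0.0307).

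Pou5f1, the POU-domain factor of pluripotent cells, had 27.3 and 25.9 FPKM in WT growing, 19.7 and 20.4 FPKM in WT GV and 5.41 and 6.69 FPKM in WT MII libraries. In Zar1/2-null libraries it had 23.6 and 24.995 FPKM, 9.73 and 19.1 FPKM, and 5.29 and 4.15 FPKM. The first Zar1/2-null GV library was about as far below the second as below WT. The GV difference was -0.52 ± 0.24 (95% interval -1.05 to 0.01, limma adjusted p = 0.103), and -0.97 (limma adjusted p = 0.00315) without that second library, so 1 library decided this call. No difference was called in growing oocytes (-0.12 ± 0.24) or at MII (-0.30 ± 0.24) by limma. Pou5f1 fell from GV to MII in both genotypes, by 1.58 ± 0.24 in WT and 1.37 ± 0.24 in Zar1/2-null oocytes (limma adjusted p = 7.31e-05 and 0.000377), but the WT change turned to 0.02 once the ERCC scaling was removed, and to 0.36 with median scaling.

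Sox2, the HMG-box partner of POU5F1, was below 0.4 FPKM in all 12 libraries, with between 2 and 20 fragments in each. Its highest value was 0.373 FPKM (15 fragments, 95% Poisson interval 0.209 to 0.616 FPKM) in the second Zar1/2-null growing library. At MII it had 0.136 and 0.154 FPKM in WT against 0.0565 and 0.115 FPKM in Zar1/2-null libraries, from 14, 20, 5 and 14 fragments. The Zar1/2-null libraries lay below WT there, and the counting intervals overlapped (0.0744 to 0.228 FPKM for the lower WT and 0.0626 to 0.192 FPKM for the higher Zar1/2-null library). Sox2 entered no test.

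Yap1, the Hippo coactivator, had 22.5 and 18.6 FPKM in WT growing, 25.4 and 24.9 FPKM in WT GV and 14.6 and 15.5 FPKM in WT MII libraries. In Zar1/2-null libraries it had 17.6 and 18.9 FPKM, 17.3 and 12.9 FPKM, and 11.3 and 10.0 FPKM. The genotypes overlapped in growing oocytes, and the Zar1/2-null libraries were lower at the later stages. The GV difference was -0.71 ± 0.16 (limma adjusted p = 0.00538), and -0.28 without the ERCC scaling (limma adjusted p = 0.321). The MII difference of -0.46 ± 0.16 missed the threshold (limma adjusted p = 0.0508) but was called in 8 of 13 alternatives, among them the removal of the ERCC scaling (-0.73, limma adjusted p = 0.00727). Of the 8 tested factors Yap1 fell least from GV to MII in WT oocytes (59.97% left), and in Zar1/2-null oocytes 70.6% was left. The direction turned once the ERCC scaling was removed, with rises of 0.99 in WT and 0.55 in Zar1/2-null oocytes (log2, limma adjusted p = 0.000618 and 0.0236), and with median scaling of 1.33 and 0.82 (4.09e-05 and 0.00172).

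**Figure D4:**
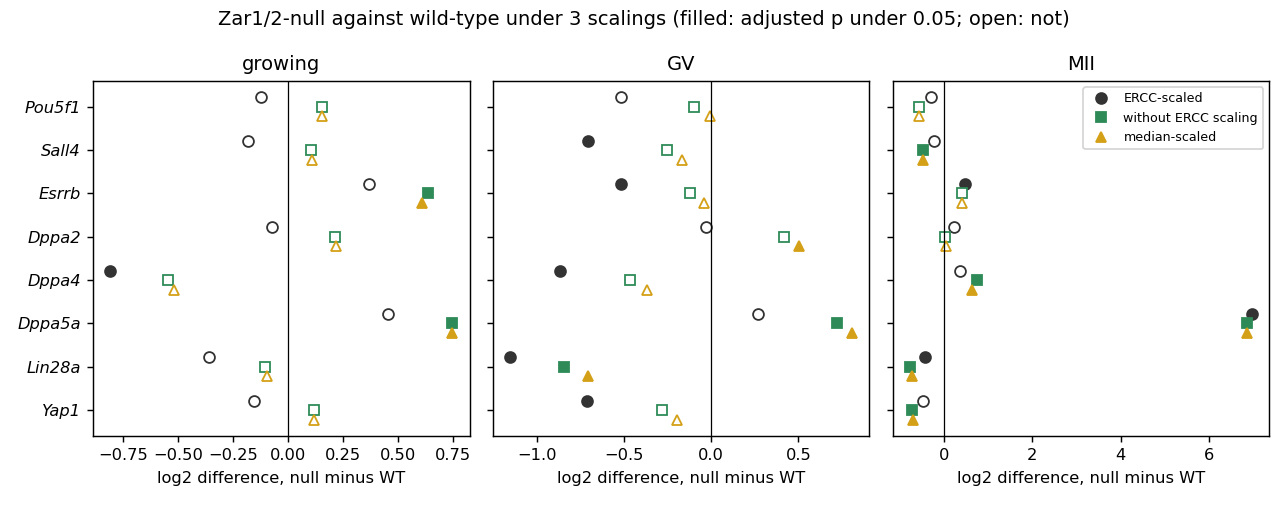
Log2 difference (Zar1/2-null minus WT) of the 8 tested factors at 3 stages with the deposited ERCC scaling (black circles), without it (green squares) and with median scaling (yellow triangles), filled where the limma adjusted p was under 0.05. Lin28a at GV and MII and Dppa5a at MII are filled under all 3, while Sall4, Esrrb, Dppa4 and Yap1 at GV are filled with the ERCC scaling alone.

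The stage changes of the factors also stood against a broad background. In WT oocytes 2 of 8 factors (Dppa2 and Dppa5a) were lower at GV than in growing oocytes and 0 were higher, where 28.7% of all genes were lower and 2.77% higher. The Dppa2 change (-0.60 ± 0.19, limma adjusted p = 0.0386) lost the call without any 1 of the 4 libraries (0.0509 to 0.226). In Zar1/2-null oocytes 6 were lower, all but Dppa4 and Yap1, where 55.9% of genes were lower and 4.76% higher. All 8 were lower from GV to MII in WT oocytes, where 93.4% of genes were lower and 0.104% higher, and 7 in Zar1/2-null oocytes, all but Lin28a, where 68.7% were lower and 0.209% higher. Relative to the median gene of the same comparison, the WT change to MII was -6.25 for Dppa5a, -2.73 for Dppa2, -2.68 for Dppa4 and -0.54 for Esrrb, and 0.58 for Yap1, 0.55 for Lin28a and 0.20 for Sall4. Without the ERCC scaling Sall4, Lin28a and Yap1 were called higher at MII than at GV in both genotypes, as were 19.2% of all genes in WT and 18.8% in Zar1/2-null oocytes. The genotype effect differed between GV and growing oocytes for 2 factors, both lower at GV (11.3% of all genes were, and 2.58% were higher), and between MII and GV for 4 factors, all higher at MII (33.9% of all genes were, and 0.643% were lower).

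Genes that work with these factors were counted from lists of their pathways, beside the share of all genes called the same way. That share was 10.6% higher and 24.4% lower in growing oocytes, 2.83% and 40.6% at GV, and 21.5% and 10.3% at MII. With the ERCC factors removed it was 14.4% and 11.7%, 7.26% and 13.1%, and 23.9% and 22.7%. Of 33 genes of the POU5F1 and SOX2 network other than the factors, 17 reached 1 FPKM, of which 3 were higher and 5 lower in Zar1/2-null growing oocytes, 10 lower at GV (40.6% of all genes were), and 1 higher and 3 lower at MII, with medians of 0.08, -0.48 and -0.05. After removal of the ERCC scaling 18 were tested, of which 3 were higher and 2 lower in growing oocytes, 1 lower at GV (13.1% of all genes), and 1 higher and 4 lower at MII. Klf17, a Krüppel-like factor of the oocyte, had 213 ± 8.16 FPKM in WT against 130 ± 5.45 FPKM in Zar1/2-null growing oocytes (-0.70 ± 0.16, limma adjusted p = 0.00525). Rif1, a regulator of replication timing, had 35.5 ± 2.63 and 17.2 ± 4.83 FPKM at GV and 16.7 ± 1.23 and 7.01 ± 0.714 FPKM at MII (-1.15 ± 0.19 at MII, limma adjusted p = 0.000692), and its MII call held under all 3 scalings. Its GV difference of -1.03 was -0.60 without the ERCC factors (limma adjusted p = 0.0765) and -0.51 with median scaling (0.105). Zfp57, which protects imprints, was lower by 0.75 ± 0.20 at MII (61.6 ± 14.9 against 35.8 ± 3.91 FPKM, limma adjusted p = 0.0132).

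Of 16 genes of the DPPA family and early cleavage, several of which the study itself measured in embryos, 15 were listed in the table and 8 were tested. In growing oocytes 2 were higher and 4 lower, at GV 4 were lower (40.6% of all genes were), and at MII 1 was higher (21.5% of all genes). Without the ERCC scaling 2 were higher and 2 lower in growing oocytes, 2 were lower at GV (13.1% of all genes) and 1 was higher at MII. Dppa1 had 11.5 and 12.5 FPKM in WT growing libraries, against 3.94 and 2.39 FPKM in Zar1/2-null ones (-1.67 ± 0.21, limma adjusted p = 0.000186), a call that held under all 3 scalings. Dppa3 (Stella), which protects maternal DNA methylation, had 3338 ± 113 FPKM in WT against 2049 ± 194 FPKM in Zar1/2-null growing oocytes (-0.71 ± 0.20, limma adjusted p = 0.0197), and was not called under the other scalings (-0.42 under both).

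Of 16 genes of the LIN28 and let-7 pathway other than Lin28a, 14 were tested, of which 2 were higher and 2 lower in growing oocytes, 6 lower at GV (40.6% of all genes were), and 1 higher and 2 lower at MII, with a GV median of -0.46. Once the ERCC scaling was removed the counts were 2 higher and 1 lower in growing oocytes, 2 higher and 1 lower at GV, and 1 higher and 4 lower at MII (22.7% of all genes were lower there). Dicer1, the nuclease that releases mature microRNAs, was lower at every stage under all 3 scalings. It had 41.5 ± 4.43 and 18.4 ± 0.0969 FPKM in WT and Zar1/2-null growing oocytes, 30.1 ± 1.66 and 11.0 ± 1.37 FPKM at GV, and 14.0 ± 0.681 and 6.29 ± 0.909 FPKM at MII. The differences were -1.13, -1.38 and -1.04 (SE 0.15 each, limma adjusted p = 0.000262, 7.88e-05 and 0.000267). Hmga2, a let-7 target, was higher in Zar1/2-null growing oocytes (8.01 ± 0.712 against 14.0 ± 0.620 FPKM, limma adjusted p = 0.00600).

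Of 31 genes of the Hippo pathway other than Yap1, 22 were tested, of which 3 were higher and 6 lower in growing oocytes, 13 lower at GV (40.6% of all genes were), and 3 higher and 3 lower at MII (21.5% and 10.3% of all genes), with a GV median of -0.47. With the ERCC factors removed 23 were tested, of which 2 were higher and 2 lower in growing oocytes, 1 higher and 5 lower at GV (13.1% of all genes were lower), and 4 higher and 6 lower at MII (23.9% and 22.7%). Mob1a, the adaptor that activates the LATS kinases, had 19.8 ± 5.05 FPKM in WT against 1.56 ± 0.327 FPKM in Zar1/2-null GV oocytes (-3.01 ± 0.19, limma adjusted p = 5.32e-06), and 27.3 ± 1.51 and 11.4 ± 0.408 FPKM in growing oocytes. Stk3, an upstream Hippo kinase, was lower at GV (21.2 ± 5.37 against 11.4 ± 0.532 FPKM, limma adjusted p = 0.00284) and higher at MII (5.78 ± 0.453 against 11.2 ± 0.793 FPKM, limma adjusted p = 0.00231), and its GV difference of -0.82 was -0.40 without the ERCC factors (limma adjusted p = 0.0587) and -0.31 with median scaling (0.127). Of the TEAD transcription factors, through which YAP1 acts on DNA, Tead2 averaged 1.39 FPKM in the WT GV libraries and 1.54 FPKM in the Zar1/2-null ones, while Tead1, Tead3 and Tead4 did not reach 1 FPKM in any library.

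The genes most like each factor over the 12 libraries were found by Pearson's r of log2(FPKM + 1) among 5836 genes whose mean reached 10 FPKM in a group. The 12 libraries share 6 groups and their scaling factors, so r is a description. Dppa5a was most like Tceb2 (r = 0.997), Ndufb8 (0.996) and 2210021J22Rik (0.995), whose means were also lower in WT MII than in Zar1/2-null MII oocytes. Tceb2, for example, had 79.8, 1.94, 83.0 and 50.9 FPKM in WT GV, WT MII, Zar1/2-null GV and Zar1/2-null MII oocytes. Dppa2 was most like Prim1 and Snai3 (r = 0.998 each) and Eef1a1 (0.998), which were low at MII in both genotypes. Dppa4 was most like Nr2e1 (r = 0.993), Esrrb like Tob2 (0.998), Sall4 like Cgn (0.991), Pou5f1 like Baiap2l1 (0.988) and Yap1 like Cnot6l (0.976).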

How the data were processed

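Smart-seq2 libraries of 10 pooled oocytes were analysed from the deposited table of 23230 genes in 12 libraries, 2 for each of 6 groups. The deposited values are FPKM, which the authors computed after trimming reads and keeping uniquely mapped ones (TopHat2 2.1.1, Cufflinks 2.2.1 and mm9, per the submitters' processing notes), and scaled in each library by the share of ERCC reads relative to the WT growing library of the same replicate number. The ERCC factor was recovered from the digits of the deposited values and divided out as an alternative. Every column was mapped to a sample, so 0 columns were left out.

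Genes with at least 1 FPKM in 1 library (11502) were tested on log2(FPKM + 1) by limma 3.58.1 in R 4.3.3, with 1 coefficient per group, all 12 libraries sharing the spread, a mean-variance trend, and Benjamini-Hochberg adjustment over all genes (threshold 0.05). A fold change on this scale understates the change of low genes. Under the 3-fold rule, means were set to at least 1 FPKM. FPKM keep no read totals. Low values step in multiples of 1 fragment for Sox2, Dppa2, Dppa5a, Lin28a and Esrrb (within 0.05 of a whole number), which gave fragments and exact 95% Poisson intervals, and no count model was run. Other loci were found with minimap2 2.31-r1302. Remaining steps used Python 3.11.15, pandas 2.3.3, numpy 2.4.6, scipy 1.17.1 and matplotlib 3.10.9.

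The 9 factors and the gene lists were chosen with earlier results of these data known. Named by rule were the factors, Zar1 and Zar1l, at most 3 called genes per other list and stage (those that changed most, with 10 FPKM or more in the higher group), and the 3 genes most like each factor. The Tead genes and Ptx3 were named after their values were seen. The limma step was tested on simulated data for the MII genotype comparison alone, with 200 of 11502 genes changed 3-fold. It recovered 91.5% of them, and 2.66% of its calls were false. Far fewer genes changed there than were called in the real data, and the other steps were not simulated. Groups share replicate numbers, which the labels do not tie to a day or litter. Deviations of same-numbered libraries correlated between -0.117 and 0.163, so the numbers were not taken to pair the libraries. Alternatives were no ERCC scaling, median scaling, a pseudocount of 0.1 FPKM, no filter, a mean of at least 5 FPKM, a replicate block, no trend, only the groups compared, and leaving out each library. A crossed replicate block was added after seeing the data.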

Additional observations from a re-analysis of the deposited data

Results flagged for a closer look

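For 4 factors the difference between Zar1/2-null and WT oocytes itself changed between stages by an interaction term (limma with Benjamini-Hochberg adjustment over 11502 genes). From growing to GV oocytes the difference moved by -0.883 for Esrrb (limma adjusted p = 0.0268) and by -0.791 for Lin28a (limma adjusted p = 0.0323) on the log2 scale. From GV to MII oocytes it moved by 6.71 for Dppa5a (limma adjusted p = 3.67e-08), 1.22 for Dppa4 (limma adjusted p = 0.00673), 0.988 for Esrrb (limma adjusted p = 0.00634) and 0.714 for Lin28a (limma adjusted p = 0.0233). The median gene also moved by -0.23 and 0.48 between these stages. The Dppa5a change held under both other scalings, the Dppa4 change held without the ERCC scaling (limma adjusted p = 0.0437) and not with median scaling (limma adjusted p = 0.0548), and those of Esrrb and Lin28a were called under neither. Without the ERCC scaling, and then with median scaling, the changes from growing to GV were close in size (-0.76 and -0.65 for Esrrb, -0.74 and -0.61 for Lin28a), while those from GV to MII were smaller for Esrrb (0.53 and 0.44) and near 0 for Lin28a (0.09 and -0.02).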

How the results depend on the processing

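The scaling moved the results more than any other choice. Of 144 values of single factors under the 2 other scalings, 46 kept both direction and side of the threshold, against 283 of 352 that left out 1 library and 483 of 503 under the other alternatives. The higher and lower factors without the ERCC scaling numbered 2 and 0 in growing, 1 and 1 in GV, and 2 and 3 in MII oocytes, and with median scaling 2 and 0, 2 and 1, and 2 and 3. The shares of all genes moved too, from 40.6% lower at GV to 13.1% and 11.4%, and from 10.3% lower at MII to 22.7% and 24.5%, while 14.4% and 14.9% were higher in growing, 7.26% and 9.92% in GV and 23.9% and 26.2% in MII oocytes. From growing to GV, 1 factor was lower in WT and 2 in Zar1/2-null oocytes without the ERCC scaling, and 0 and 2 with median scaling (3.0% and 20.5%, and 3.14% and 18.9%, of all genes). From GV to MII, 3 were higher and 4 lower in WT and 3 higher and 2 lower in Zar1/2-null oocytes without it, and 3 and 3, and 4 and 2, with median scaling. Without it 19.2% of all genes were higher and 46.1% lower in WT and 18.8% and 39.3% in Zar1/2-null oocytes, and with median scaling 30.9% and 40.9%, and 29.2% and 34.6%. Of the differences between stages, 0 were lower from growing to GV under both, and 2 and 1 were higher from GV to MII (14.3% and 15.0% of all genes). The 2 scalings take out the shift that the ERCC factors give to all genes of a library. Without the ERCC scaling, and then with median scaling, the WT change from GV to MII was 0.81 and 1.10 for Lin28a, 0.019 and 0.36 for Pou5f1, 0.66 and 1.01 for Sall4, and 0.99 and 1.33 for Yap1. The Zar1/2-null change was 0.24 and 0.52 for Dppa5a, 0.0092 and 0.26 for Esrrb, 0.90 and 1.07 for Lin28a, 0.44 and 0.72 for Sall4, and 0.55 and 0.82 for Yap1. With median scaling, the GV difference was 0.51 for Dppa2, the Zar1/2-null change from growing to GV was 0.065 for Dppa2 and 0.049 for Sall4, and the difference between MII and GV was -0.022 for Lin28a.

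With a pseudocount of 0.1 FPKM, 0 factors were lower in growing and 2 in MII oocytes, where 20.2% and 15.2% of all genes were. With it 1 factor was lower from growing to GV in WT oocytes (18.8% of all genes), and 1 difference between GV and growing oocytes was lower. With no filter, 1 factor was higher and 0 lower at MII, and 1 was lower from growing to GV in WT oocytes. The factors that lost the call there kept their log2 values, and only the adjusted p moved past the threshold. These were Esrrb (0.47, limma adjusted p = 0.0671) and Lin28a (-0.44, 0.0682) at MII, and Dppa2 (-0.60, 0.0607) from growing to GV in WT oocytes. The lower counts are thus no change in the levels of the factors. With a mean of at least 5 FPKM, and with only the groups compared, 0 differences were lower from growing to GV. Without a trend and with only the groups compared, 2 factors (Lin28a and Yap1) were lower at MII (10.5% and 16.9% of all genes). With a floor of 0.1 FPKM, 2 factors were higher by the 3-fold rule at MII (14.9% of all genes). The cause of these changes was not tested. Leaving out 1 library gave 0 to 1 lower in growing oocytes, 1 higher and 0 lower at MII in every case, 0 to 1 lower from growing to GV in WT and 3 to 6 in Zar1/2-null oocytes, and 0 to 2 differences lower from growing to GV. A lone library left in a group was assumed to vary like the others.

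With the replicate number as a block, 2 factors (Lin28a and Yap1) were lower at MII (11.0% of all genes). Apart from the fits that left out 1 library, no other count of factors moved by more than 1.5 times. Same-numbered WT and Zar1/2-null GV libraries deviated oppositely (r = -0.117). The block with crossed numbers gave 2 factors lower at MII (11.9% of all genes). A common ERCC reference for both replicates was not run. It needs the ERCC percentages, which the paper's supplement lists and which were not used here. With only the groups compared, Dppa4 had no MII value, since it did not reach 1 FPKM there. The 2 libraries per group and values near the detection limit (Sox2, and Dppa4 at MII) also limit these results. So does the earlier meiotic stage of ovulated Zar1/2-null oocytes, for MII differences and for changes from GV to MII.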

Other observations

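Factors of the first lineages of the blastocyst were mostly below 1 FPKM, with 5 of 12 tested. Of these, 2 were higher in Zar1/2-null growing oocytes, 2 were higher and 3 lower at GV, and 1 was higher at MII (limma adjusted p under 0.05), where 10.6% of all genes were higher in growing oocytes, 2.83% higher and 40.6% lower at GV, and 21.5% higher at MII. Once the ERCC factors were removed, 2 were higher in growing oocytes, and 2 were higher and 1 lower at GV and at MII. Krt8, a keratin of trophectoderm and other epithelia, had 3.71 ± 0.176 FPKM in WT against 80.4 ± 10.7 FPKM in Zar1/2-null growing oocytes (log2 difference 4.11 ± 0.31, limma adjusted p = 7.70e-06), and 1.42 ± 0.980 and 11.0 ± 5.67 FPKM at GV. Krt18, its usual partner, stayed under 1 FPKM in all 12 libraries, and was named after its values were seen. Tfap2c, a transcription factor of trophectoderm and germ cells, had 5.76 ± 0.173 and 15.2 ± 1.61 FPKM in growing oocytes (1.26 ± 0.14, limma adjusted p = 6.92e-05). These calls of Krt8 and Tfap2c held under all 3 scalings.

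Among 16 oocyte markers, 12 were higher and 2 lower in Zar1/2-null MII oocytes (21.5% and 10.3% of all genes were), with a median log2 difference of 1.75, and 11 and 2 without the ERCC scaling (23.9% and 22.7% of all genes). The zona pellucida gene Zp3 had 16.4 ± 0.476 FPKM in WT against 739 ± 141 FPKM in Zar1/2-null MII oocytes (5.40 ± 0.20, limma adjusted p = 3.93e-09). Among 299 kept genes whose transcript, like that of Dppa5a, is at most 700 bases long, 60.2% were higher in Zar1/2-null MII oocytes, with a median of 1.22, against 21.9% of 10609 genes with a transcript, with a median of 0.06. This length limit was chosen after seeing the data.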
